A study of Aspergillus luchuensis with 6 samples.

Results

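The steady, well expressed transcripts of rice koji were 160 locus tags out of 11488, described here as candidate reference transcripts. They were chosen from the values themselves. Levels are CPM, reads per 1000000 counts of the library total. A tag was taken when its wild-type mean lay from 200 to under 1000 CPM, its U1 mean within 5% of its wild-type mean (a ratio of 0.95 at the lower limit), and its coefficient of variation (CV, the SD over the mean) over the 6 libraries under 6%. Tags AKAW_05980 to AKAW_06045 were left out; 4 of them had the level and 0 met all limits. Of the 11488 tags, 892 had the level, 247 of these also had the ratio, and 160 also had the CV. The steady tags were thus 1.39% of all tags and 17.9% of the tags of their level.

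The RNA came from rice koji, steamed rice overgrown by the filamentous fungus *Aspergillus luchuensis*, which is used to make Japanese distilled spirits. One group was the wild-type strain RIB2601. The other was U1, a mutant in the same RIB2601 background that the labels call strongly starch-degrading and that was obtained, per the series title, with an ion beam. Each strain had 3 libraries of total RNA, labelled as whole cell. The labels used here give no culture time, no mutated gene and no statement that replicate libraries were grown separately, so the spread behind the p-values may be technical and covers these libraries alone. Library totals were 4025119 to 5064126 counts in wild type and 4427719 to 8420828 in U1, the largest being U1 replicate 1.

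A reference transcript is one whose level stays the same between the samples compared, so that other transcripts can be expressed against it, for example in quantitative PCR. Genes for the cytoskeleton, for glycolysis, for translation and for protein turnover are customary choices in fungi, and such genes can still differ between strains or growth stages. A reference must also be read deeply enough for its own counting error to be small, which is why a level well above the median is useful. The counts carry locus tags without gene names. In a RefSeq table of 12941 genes, annotated separately from these tags, 0 of the 160 steady tags were found, so no role is given for any of them, the customary reference genes could not be looked up, no sequence is printed and the fungal cell type could not be checked by marker genes. The tags are described by level, spread and place in the numbering.

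The tags with the smallest CVs differed little between libraries. AKAW_09102 stood at 206, 205 and 207 CPM in wild-type replicates 1 to 3 and at 209.7, 209 and 207 CPM in U1 replicates 1 to 3. Its 6 libraries spanned fewer than 5 CPM, and the strains did not overlap although the ratio of their means was 1.013. Its CV was 0.860%, the smallest of the set. It rested on 834 reads in wild-type replicate 3 and on 1766 reads in U1 replicate 1. AKAW_07430 was more abundant, at 456, 459 and 447 CPM in wild type and 459, 451 and 458 CPM in U1, with a CV of 1.049%. Its lowest library was wild-type replicate 3, and its strains overlapped. AKAW_01654 read 226, 223 and 229 CPM in wild type and 223, 230.2 and 228 CPM in U1, with a CV of 1.34%. The lowest and the highest of its libraries came from different strains, and the strains overlapped. The next 3 tags by CV were AKAW_07954 at 1.42%, AKAW_06343 at 1.74% and AKAW_02497 at 1.76%, with wild-type means of 201, 246 and 273 CPM.

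**Figure D1:**
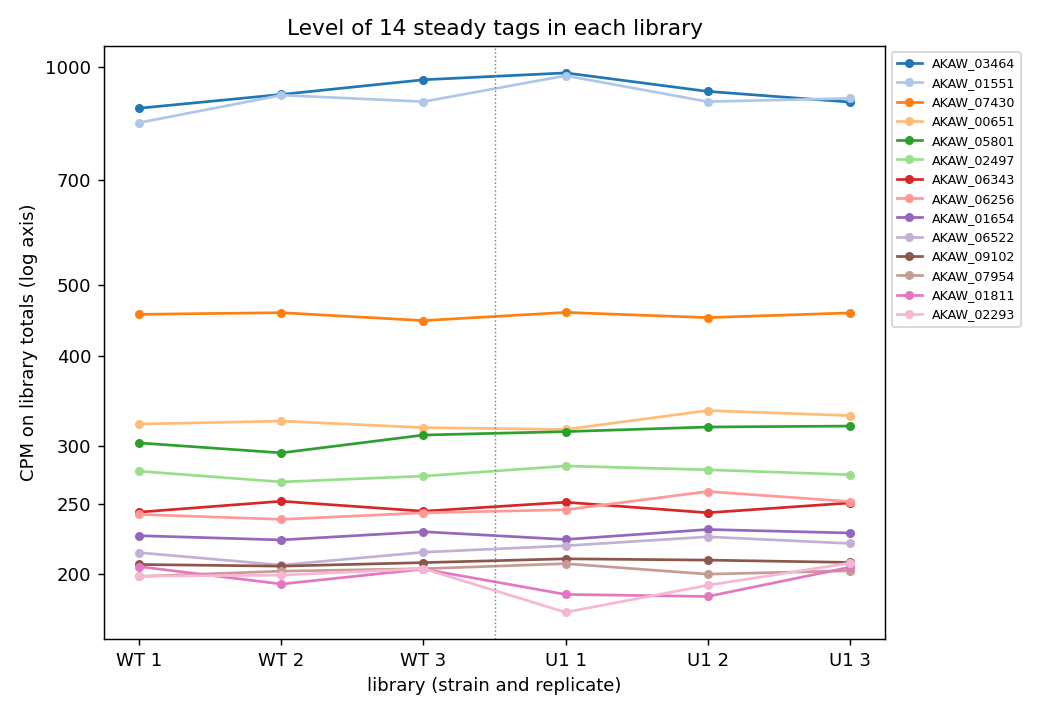
Level of 14 steady tags (y axis, CPM on library totals, log axis) in the 3 wild-type and 3 U1 libraries (x axis, WT 1 to 3 and U1 1 to 3); each line joins the points of 1 tag, and the points are single libraries. The tags shown are those with the smallest CV on either scaling and those with the highest and lowest level, and the line of AKAW_09102 is the flattest while AKAW_01551 spans 839 to 974 CPM.

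Such small CVs lay below what counting alone gives. With the real library totals, the CV expected from counting reads was 3.11% for AKAW_09102, 2.10% for AKAW_07430 and 2.98% for AKAW_01654. All 6 tags named above had a CV under their counting value, as did 20 of the 160 steady tags (12.5%). Among the other 732 tags of the same level 0 did, which the choice by small CV favours. The order of these 20 tags is therefore not resolved at this depth. Over the whole set the CV had a median of 4.08% (quartiles 3.18% and 4.97%), against a median counting value of 2.60%. The median CV of all 892 tags of the level was 8.75%, at a counting value of 2.48%. The CV and the ratio chose the set, so these values describe it and test nothing.

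**Figure D2:**
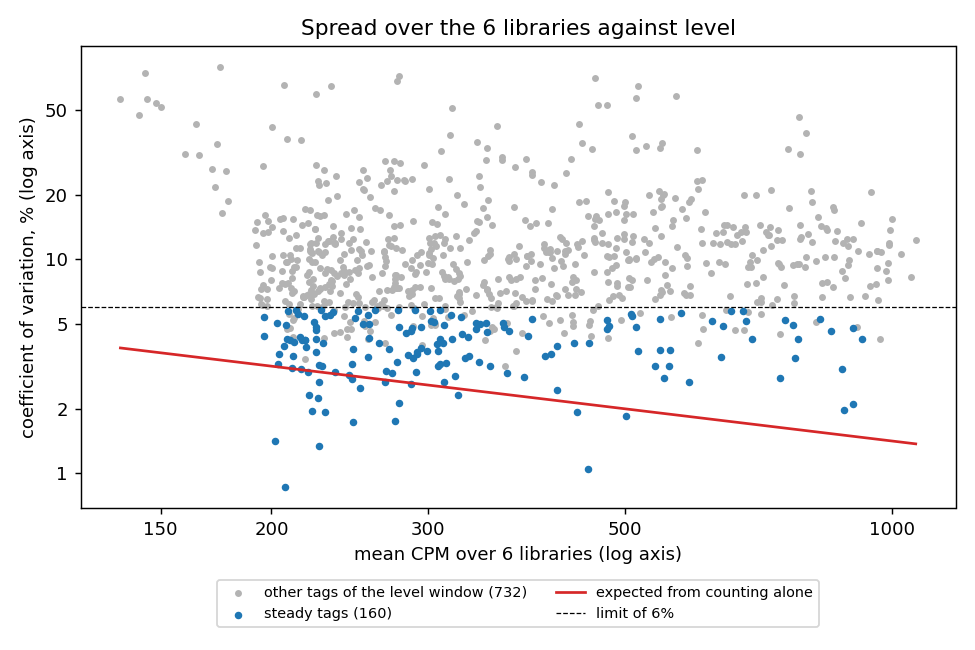
CV over the 6 libraries (y axis, %, log axis) against mean level (x axis, CPM, log axis) for the 892 tags of the level window; blue points are the 160 steady tags, grey points the other 732, the red line the CV expected from counting alone and the dashed line the limit of 6%. The steady tags lie on both sides of the counting line, and grey points under the dashed line failed on the strain ratio.

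Steady tags were found up to a wild-type mean of 919 CPM, more often at the lower end of the window. From 200 to 300 CPM they were 81 of 394 tags (20.6%), from 300 to 500 CPM 48 of 271 (17.7%), and from 500 to 1000 CPM 31 of 227 (13.7%). Their median CV was 3.88%, 4.16% and 4.25% in these classes, while the median counting value went down from 2.95% over 2.42% to 1.74%. Deeper reading thus came with no smaller spread among the chosen tags. The median wild-type level of the set was 298 CPM and its median U1 level 299.98 CPM.

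By mean over the 6 libraries, AKAW_03464 and AKAW_01551 were the most abundant steady tags. AKAW_03464 stood at 878, 918 and 961 CPM in wild type and 983, 927 and 896 CPM in U1, with a CV of 4.24%. Its strains overlapped widely, and the spread within each strain was larger than the difference between the means. AKAW_01551 stood at 839, 916 and 897 CPM in wild type and 974, 897 and 906 CPM in U1, with a CV of 4.79%. Its lowest library was wild-type replicate 1 and its highest U1 replicate 1. Tags of nearly the same mean level had smaller CVs, AKAW_08723 at 904 CPM with 2.11% and AKAW_07537 at 883 CPM with 1.98%, both picked after their values were seen. At the lower end, AKAW_02293 read 198, 199 and 203 CPM in wild type but 177, 193 and 207 CPM in U1. Here the U1 libraries held both the lowest and the highest value. AKAW_01811 read 205, 194 and 203 CPM in wild type and 187, 186 and 204 CPM in U1, and its strains overlapped through U1 replicate 3.

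Except at the upper level limit, tags at the edges of the rule differed little from those just past them. AKAW_02293 had the lowest wild-type mean inside, 200.3 CPM, and AKAW_02696, at 199 CPM, the highest under the limit among tags that met the limits on ratio and CV. The largest mean inside was the 919 CPM of AKAW_03464, and the next tag above the window that met the other limits was AKAW_03657 at 1021 CPM. At the lower ratio limit, AKAW_03661 was inside at 0.9501 and AKAW_07987 outside at 0.9498. At the upper one, AKAW_05801 was inside at 1.0499 and AKAW_00083 outside at 1.0501. By CV, AKAW_03738 was the last inside at 5.83% and AKAW_03476 the first outside at 6.01%.

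The U1 libraries set most of the extremes. Replicates 1 and 2 of U1 held the highest or lowest value of a steady tag 76 and 75 times, and each of the other 4 libraries did so 33 to 49 times. The median absolute deviation from a tag's own mean was 3.37% and 3.48% in U1 replicates 1 and 2 and 2.25% to 2.52% in the other 4 libraries. The median CV within a strain was 3.01% in wild type and 4.48% in U1. The same was seen over all tags of the level, at 4.26% and 6.53%. Together the 160 tags took 5.77%, 5.79% and 5.86% of the counts in wild type and 5.79%, 5.88% and 5.83% in U1, a near-constant share that the limits on ratio and CV fix. CPM is a share of the reads, so in these bulk samples equal amounts of a transcript per koji and amounts that moved in step with all other transcripts cannot be told apart, nor can fewer cells and less RNA per cell.

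A library that took no part in the choice gives a measure of steadiness that the rule fixed only in part. The rule was applied to 5 libraries at a time, and the level in the sixth was set against the mean of the other libraries of its strain. Those libraries took part in the choice, which favours smaller deviations for the chosen tags by an amount that was not tested. Over the 6 libraries, the median absolute deviation was 4.22% for tags chosen in the other 5 and 5.37% for all tags of the level. Tags so chosen lay within 10% of the mean in 83.7% of cases, against 76.2% for all tags of the level. By library, the chosen tags deviated by 3.34%, 3.12% and 3.72% in wild-type replicates 1 to 3, where all tags of the level deviated by 4.17%, 3.68% and 5.29%. In U1 replicate 2 the values were 5.28% and 7.77%, and in U1 replicate 3 they were 3.60% and 5.04%. U1 replicate 1 stood apart: tags chosen without it deviated in it by 7.56%, beside 7.67% for all tags of the level. The upper quartile of the deviations there was 17.3% for the chosen tags and 14.02% for all tags of the level. Single chosen tags lay between 22.3% below and 43.7% above the mean of the other U1 libraries there. Counting alone would give median deviations of 1.68% to 2.32%, so the left-out deviations exceeded counting error in all 6 libraries. Without U1 replicate 1, the pooled medians were 3.78% and 5.03%. The 5-library sets share most of their libraries, so these 6 values are not independent and no test was made.

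**Figure D3:**
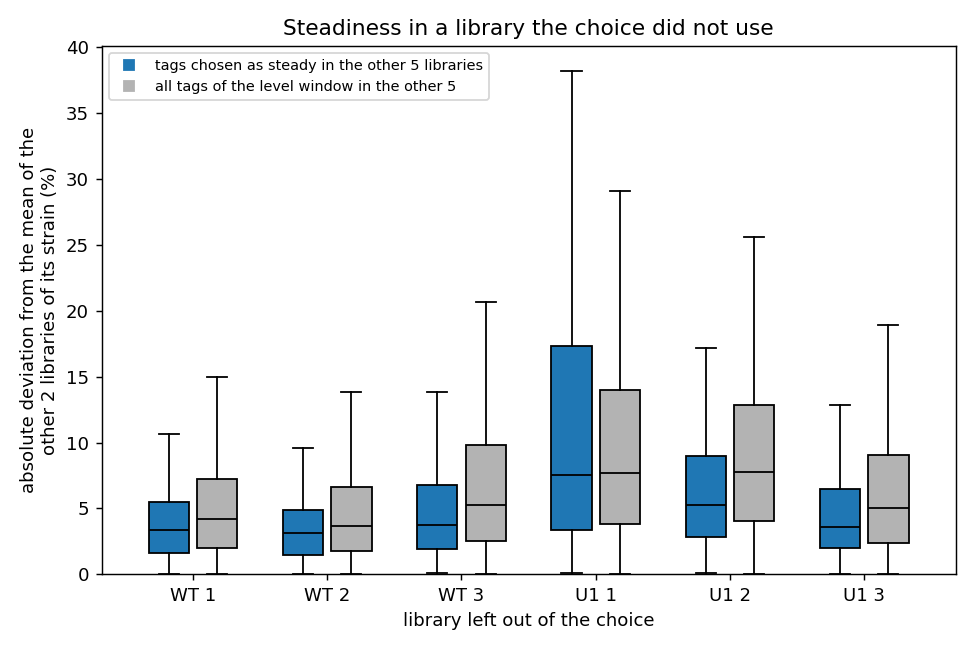
Absolute deviation of a left-out library from the mean of the other 2 libraries of its strain (y axis, %) for each library left out (x axis); blue boxes are tags chosen as steady in the other 5 libraries and grey boxes all tags of the level window in those 5. Boxes span the quartiles, the line is the median, whiskers reach 1.5 times the quartile range and points beyond are not drawn. Blue medians lie below grey ones in every library, by a wide margin in U1 2 (5.28% against 7.77%) and hardly at all in U1 1 (7.56% against 7.67%), where the blue box reaches higher than the grey.

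Tags with the smallest CVs in the other 5 libraries also deviated less in the left-out library. The 20 tags with the smallest CV in the other 5 libraries deviated by a median of 2.17% to 2.43% in the wild-type libraries, and the remaining chosen tags by 3.33% to 3.93%. In U1 replicates 1 to 3 the 20 tags deviated by 5.26%, 3.89% and 2.84%, and the remaining chosen tags by 7.85%, 5.53% and 3.73%. The 20 tags deviated less in 6 of 6 libraries. The CV also covered the libraries that form the mean, so the choice favours this outcome. This ranking was added after the values had been seen. Membership itself was less firm. From 121 to 137 of the 160 steady tags were chosen again when 1 library was left out, and 73 were chosen again all 6 times. Without U1 replicate 1 the rule chose 226 tags, of which 125 (55.3% of the chosen, 78.1% of the steady tags) were among the 160.

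No steady tag passed the test between the strains, as the ratio limit favours. The edgeR quasi-likelihood test was run on the 8790 tags with enough reads and adjusted by the Benjamini-Hochberg method over all of them, on libraries scaled with trimmed-mean (TMM) factors. Of all tested tags 24.5% were called at an adjusted p under 0.05, and 29.5% of those of the level window, but 0 of the 160 steady tags, all of which were tested. At an unadjusted p under 0.05 the count was also 0, beside 34.2% of all tested tags, and DESeq2's Wald test called 0, beside 19.5%. With library totals in place of TMM factors 0 were called too, beside 26% of all tested tags. The rule used this contrast, so nothing is read from these counts. The standard error of a steady tag's log2 fold change was 0.065 to 0.084. For 133 of the 160 tags the 95% interval lay within a 1.2-fold difference in either direction, and for 27 it reached past it. With library totals alone the interval lay within that bound for all 160 tags. The ratio limit on library totals favours both interval counts, so they describe the set and test nothing.

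Whether a tag counts as steady depended on how the libraries were scaled. TMM factors ran from 0.970 to 0.983 in wild type and from 1.003 to 1.043 in U1, which shifts the strains against each other by 0.073 on the log2 scale, or 1.052-fold. On that scale all 160 steady tags had a log2 fold change below 0, from -0.15 to -0.00035 with a median of -0.060. On library totals the median was 0.013. A shift as large as the upper ratio limit moves the whole set to one side of 1. The median over all tested tags was 0.0050 with TMM factors and 0.077 on library totals. For all tags of the level window it was -0.029 with TMM factors, so part of the offset of the steady tags was shared by tags of their level. On library totals the steady tags summed to 58066 ± 463 CPM in the wild-type libraries and 58337 ± 454 CPM in those of U1 (SD, n = 3 each). On TMM-scaled library sizes the sums were 59558 ± 172 and 56876.5 ± 747 CPM. The libraries of the strains did not overlap for 6 steady tags on library totals, all 6 higher in U1, against 40.4% of all tested tags and 45.5% of those of the level window. On TMM-scaled CPM they did not overlap for 39, all 39 lower in U1, against 37.7% of all tested tags. Since the ratio chose the members, nothing further is read from these counts.

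**Figure D4:**
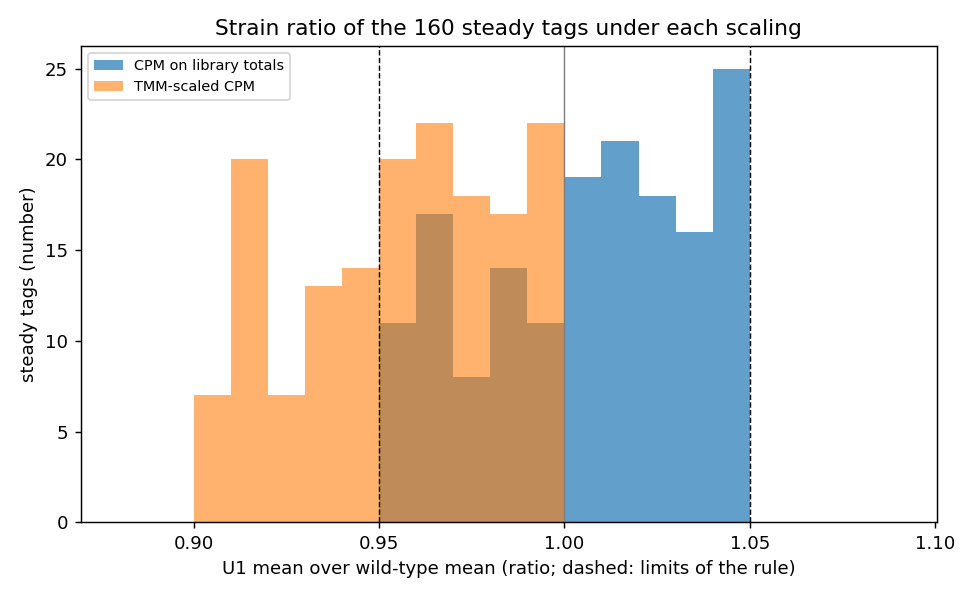
Number of steady tags (y axis) by the ratio of U1 to wild-type mean level (x axis), with CPM on library totals in blue and on TMM-scaled library sizes in orange; dashed lines mark the limits, 5% to either side of 1. The median ratio is 1.0093 on library totals and 0.959 with TMM factors, where 61 of the 160 tags lie below the lower limit and 0 above the upper.

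Applied to TMM-scaled CPM, the same rule chose 191 tags. Of these 97 were among the 160, which is 60.6% of the first set and 50.8% of the second. For 61 of the 160 the ratio was then under 0.95, and for 26 the CV reached 6% or more. Of the 94 tags chosen with TMM factors alone, 85 lay above the upper ratio limit on library totals. DESeq2 size factors kept 98 and upper-quartile factors 100 of the 160. A core of 96 tags met the rule under all 4 scalings, with ratios from 1.0008 to 1.0499 on library totals and 0.951 to 0.998 with TMM factors.

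Some tags of the core had small CVs on either scale. AKAW_00651 read 322, 325 and 318 CPM in wild type and 316, 336 and 331 CPM in U1 on library totals. With TMM factors it read 331, 335 and 324 CPM in wild type and 316, 322 and 320.4 CPM in U1. Its CV was 2.31% and 2.21%, and its largest CV over the 4 scalings was the smallest in the core. In U1 replicate 1 it was the lowest of all libraries on both scales, and its strains overlapped on library totals but not with TMM factors. Among the 160 steady tags, AKAW_06256 had the smallest CV with TMM factors, 0.889%, at 249, 245 and 247 CPM in wild type and 244, 249 and 244 CPM in U1. On library totals the same tag read 242, 238 and 243 CPM in wild type and 245, 259.7 and 252 CPM in U1, with a CV of 3.24% and no overlap of the strains. AKAW_06522 and AKAW_05801 followed among the 160, at CVs of 1.44% and 1.61% with TMM factors, beside 3.07% and 3.24% on library totals. AKAW_09102, the tag with the smallest CV on library totals, had a CV of 2.58% with TMM factors. Its strains did not overlap there either, at 211 to 212 CPM in wild type and 200 to 209 CPM in U1. On library totals it had been higher in U1. With TMM factors AKAW_01654 was also lower in U1 without overlap, while the strains of AKAW_07430 overlapped on both scales. Of the 10 tags with the smallest CV on library totals, 3 were also among the 10 of the 160 with the smallest CV with TMM factors.

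Ratios between tags of one library do not depend on scaling. For each steady tag, the SD over the 6 libraries of its log2 ratio to each of the other steady tags was averaged. This pairwise SD was 0.057 to 0.109 on the log2 scale with a median of 0.080. The remaining tags of the same level had a median of 0.153 against the steady tags. Of the 10 tags with the smallest CV, 8 were also among the 10 with the smallest pairwise SD. AKAW_01654 and AKAW_09102 had values of 0.057 and 0.058. The CV on library totals chose the tags and their partners. The pairwise SD is thus not independent of that CV, and this is a description.

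Used as a scale, the steady tags returned nearly the library totals from which they had been chosen. Library factors from their geometric mean ran from 0.993 to 1.011. With these factors 2268 tags were called between the strains, 1349 higher and 919 lower in U1, so that 59.5% of the calls were higher. With TMM factors 2153 were called, 1002 higher and 1151 lower, with 46.5% of the calls higher, and 1921 tags were called under both. The geometric mean of the 3 tags with the smallest CV differed from that of all 160 by at most 0.925% in any library, that of 5 tags by 1.62%, of 10 and of 20 by 1.32% and of 50 by 0.966%. AKAW_09102 alone differed by at most 1.91%. The CV chose these tags, so this is a description.

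Steady tags were spread along the numbering, which is taken here as an order only. Their numbers ran from 23 to 10886, and the largest gap between neighbours was 403. In each full block of 1000 numbers that reached 11000 or less, steady tags were 12.3% to 23.1% of the tags of the level, the lowest share being in the block up to 10000. From 11001 on, 0 of 5 were steady. Only 8 steady tags had a steady neighbour. They formed a pair and 2 runs of 3, AKAW_00267 to AKAW_00269 and AKAW_00837 to AKAW_00839. In the first run the levels were alike, with wild-type means of 291, 308 and 308 CPM and U1 means of 284, 318 and 317 CPM. In the second, AKAW_00837 stood at 503 and 514 CPM while AKAW_00838 stood at 220.5 and 229 CPM and AKAW_00839 at 209.7 and 214 CPM. On library totals all 6 tags of both runs were highest or second highest in U1 replicate 2. That library also held the highest value of 47 steady tags, more than any other library. With TMM factors this rank held for AKAW_00269, AKAW_00837 and AKAW_00838, but not for AKAW_00267, AKAW_00268 and AKAW_00839. Whether the tags of a run moved together was not tested.

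Tags next to a steady tag in the numbering were not chosen by the rule. There were 307, of which 288 were tested. Of these 58 (20.1%) were called, 32 higher and 26 lower in U1, against 24.9% of all tested tags outside the set. Changes of at least 2-fold were called for 4 of the 288 (1.39%), beside 5.71% outside the set. The median absolute log2 fold change was 0.12 for the neighbours and 0.17 for all tested tags outside the set. The neighbours were also better expressed, with a median of 64.2 CPM against 43.9 CPM. Within classes of level, the called share was 15.6% against 23.9% under 50 CPM, 21.6% against 23.4% from 50 to 200 CPM, and 31.3% against 36.4% above. These shares are descriptions, since neighbouring tags are not independent and the part of level in them was not tested.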

How the data were processed

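For each of the 3 wild-type and 3 U1 libraries the authors deposited raw counts by locus tag, whole numbers with no normalization. The submitters' processing notes name Trimmomatic 0.32 and BWA 0.7.12; for the counting program, genome build, annotation and strand setting, none is given in the sources used here. How reads of similar or overlapping genes were counted is therefore not known. The members and the rules for naming tags were chosen with earlier results of these data known. Named tags were those with the smallest CV on either scaling, the highest and lowest level, those nearest each limit, and the longest runs. CPM, means, SDs (n - 1) and CVs were computed from the counts in Python 3.11.15. The counting CV is the Poisson value at a tag's mean level and the real library totals and covers counting error only. Strains were compared in R 4.3.3 with edgeR 4.0.16 (filterByExpr, TMM, robust quasi-likelihood fit on strain, two-sided test) over all 8790 tested tags, which held at least 99.9% of each library's counts. The code was tested on simulated data. Libraries of a strain differed by more than sampling noise (chi-square per degree of freedom 2.15 to 7.46), so all 6 were counted. Alternatives were DESeq2 1.42.0, other scalings, filters, limits, a replicate block, thinning and leaving out each library.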

Additional observations from a re-analysis of the deposited data

How the results depend on the processing

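Between strains, 1625 to 2284 tags were called over the refits at an adjusted p under 0.05, against 2153, and 1416 at an adjusted p under 0.01. The count of steady tags called was 0 under every refit of all 6 libraries and 0 to 1 when 1 library was left out. The single call came without U1 replicate 1: AKAW_03525, with -0.20 ± 0.068 as its log2 fold change (SE) and an edgeR adjusted p of 0.037, beside 23.4% of all tags tested then. The median log2 fold change of the set was 0.013 with library totals and 0.0058 with scaling on the steady tags, since both leave out most of the TMM shift. It was -0.050 to -0.063 without 1 library. The median CV was 4.59% on TMM, 4.58% on DESeq2 and 4.46% on upper-quartile scaling, and 3.61% to 4.22% without 1 library. The set held 76 tags at a CV limit of 4%, 65 with ratios within 2% of 1, 368 from 100 CPM and 79 from 300 CPM, as narrower or wider limits give, and 146 to 226 when 1 library was left out. Thinned to the smallest library it held 153, of which 135 were among the 160. Left-out deviations were 4.12% on TMM-scaled CPM, an alternative added after seeing the data, as were all those for neighbours, of which 41 to 63 were called. With the replicate block 2091 tags and 0 steady tags were called. Libraries 1, 2 and 3 of the strains had deviations with correlations of -0.037, -0.0019 and -0.070, in no case the highest for that library, so the numbers were not taken as pairs.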

Other observations

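The same limits on ratio and CV were met outside the level window. At 1000 CPM or more, 11 of 110 tags (10%) met them, the most abundant being AKAW_01541. It read 6229, 6176 and 6503 CPM in wild type and 6216, 6109 and 5909 CPM in U1, a CV of 3.12% beside a counting value of 0.569%. AKAW_10326 had the smallest CV of the 11, 1.82%, at 1852, 1873 and 1849 CPM in wild type and 1820.2, 1784 and 1868 CPM in U1, and its strains overlapped. From 100 to 200 CPM 208 of 1271 tags (16.4%) met the limits, and from 50 to 100 CPM 193 of 1755 (11%), where counting alone gives a median CV of 3.81% and 5.26%. These tags were looked at after the values had been seen.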
